A study of Blastobotrys raffinosifermentans with 8 samples.

Results

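The 9 locus tags from ARAD1C45606g to ARAD1C45804g surround ARAD1C45716g (AGDC1) at the high end of the tag numbers of chromosome C in the yeast Blastobotrys raffinosifermentans LS3. The name AGDC1 for that tag comes from the study. They were chosen by their tag number alone, as every tag on the array in that interval, and make up 9 of 6160 tags and 88 of 56312 probes. ARAD1C45804g was the last chromosome C tag on the array, and 0 tags followed it. No probe on the array carried the tag ARAD1C45716g, so no response could be given for AGDC1 under its own tag. The study reports AGDC1 as upregulated on its arrays with protocatechuic acid. Whether probes under another tag measure AGDC1 could not be checked here. Neighbours are meant by tag number alone. By the serial numbers in the probe names, ARAD1C45804g (first serial 35725) comes directly after ARAD1C45694g (35717). The tag letter C was read as the chromosome, and no genome build or coordinates came with the files. Neither names nor functions of the 9 neighbours came with the files, so none are given.

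AGDC1 encodes gallic acid decarboxylase, which removes the carboxyl group of gallic acid and leaves pyrogallol. Gallic acid is a building block of hydrolysable tannins, and yeasts that live on plant material can use it as a carbon source once its ring has been opened. In fungi, genes for the breakdown of aromatic acids are often switched on by their substrate, and some lie beside each other on a chromosome. The comparison here asked which neighbours of AGDC1 differed between cells with and without gallic acid.

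Total RNA was measured on 8 one-colour Agilent arrays. LS3 cells, the strain used in all samples, were grown overnight with glucose and nitrate and shifted either to 1% glucose plus 0.5% gallic acid (4 arrays, the gallic acid arm) or to 1% glucose alone (4 arrays, the glucose arm). Each arm had 1 array at each of 4 harvest times after the shift, the early ones being 15 min and 30 min and the late ones 2 h and 5 h. The labels do not name separate cultures for the arrays of 1 arm, and a p-value then covers the spread among these 8 arrays alone, part of which may be technical. In the comparison of the arms that spread is how far the ratio of gallic acid over glucose varies between harvest times. A response that changes over time therefore has a wider standard error. An SD of an arm likewise runs over its 4 harvest times and not over replicates. All 8 arrays lay on 1 slide, where the row followed the arm and the column followed the harvest time, so slide position and group cannot be told apart. In total RNA of a culture, fewer cells that express a gene and less RNA per cell cannot be told apart either.

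Of all spots, 56.7 to 81.9% per array were well above background by the scanner software's flag, and 0 of the spots of the yeast probes were saturated. The share was lower in the gallic acid arm at every harvest time. By harvest time it was 58.9, 67.7, 74.3 and 56.7% there, against 78.6, 72.5, 81.9 and 58.2% in the glucose arm. Whether this difference affected the ratios of dim tags was not tested. Levels are given as log2 intensity after background correction, with an offset of 50 added to every spot, and quantile normalisation. The level of a tag is the median of its probes (8 probes for ARAD1C45694g and 10 for each of the other members). The lowest level with signal well above background was 5.86 to 5.99 on the 8 arrays, and levels near 5.9 are called the floor here. Single probes without such signal lay below it, as low as 5.68 in ARAD1C45606g (glucose arm, 2 h). The offset narrows differences among dim spots. A ratio of a tag near that floor is therefore narrower than one of a brighter tag. All 9 tags had a probe well above background on at least 2 arrays and were tested, among 6112 tags in all, and 7 of the 9 passed a stricter filter that 4717 tags passed. Since levels on an array depend on the probe, the level of 1 tag is not set against that of another.

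Under gallic acid 1 of the 9 tags, ARAD1C45804g, rose in the fit over all harvest times. ARAD1C45782g and ARAD1C45672g were also higher by size at 1 or more harvest times. Whether ARAD1C45804g stands for a gene apart from AGDC1 was not tested. The fit was limma with harvest time as a block, and a tag was called at a Benjamini-Hochberg adjusted p below 0.05. It called 0.0818% of all tested tags (5 of 6112). At an unadjusted p below 0.05, 4 of 9 members and 528 of 6112 tags passed. The median log2 difference of the 9 members was 0.12, beside -0.01 over all tags tested.

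By size, a tag was counted as changed at a harvest time where its log2 ratio of gallic acid over glucose was 1 or more, or -1 or less, with the sign shared by 80% or more of the probes. There is 1 array per arm and time, so this count has no test. It took in 3 of 9 members as higher at any time, beside 1.33% of all tested tags, and 0 of 9 as lower, beside 0.704%. In either direction the share of all tags was 2.03%. At 15 min 1 member was higher by size (ARAD1C45804g), where 0.654% of all tags were. At 30 min there were 2 (ARAD1C45672g and ARAD1C45804g), beside 0.474%. At 2 h there were 3 (ARAD1C45672g, ARAD1C45782g and ARAD1C45804g), beside 0.524%. At 5 h ARAD1C45804g was again the single member, beside 0.262%.

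**Figure D1:**
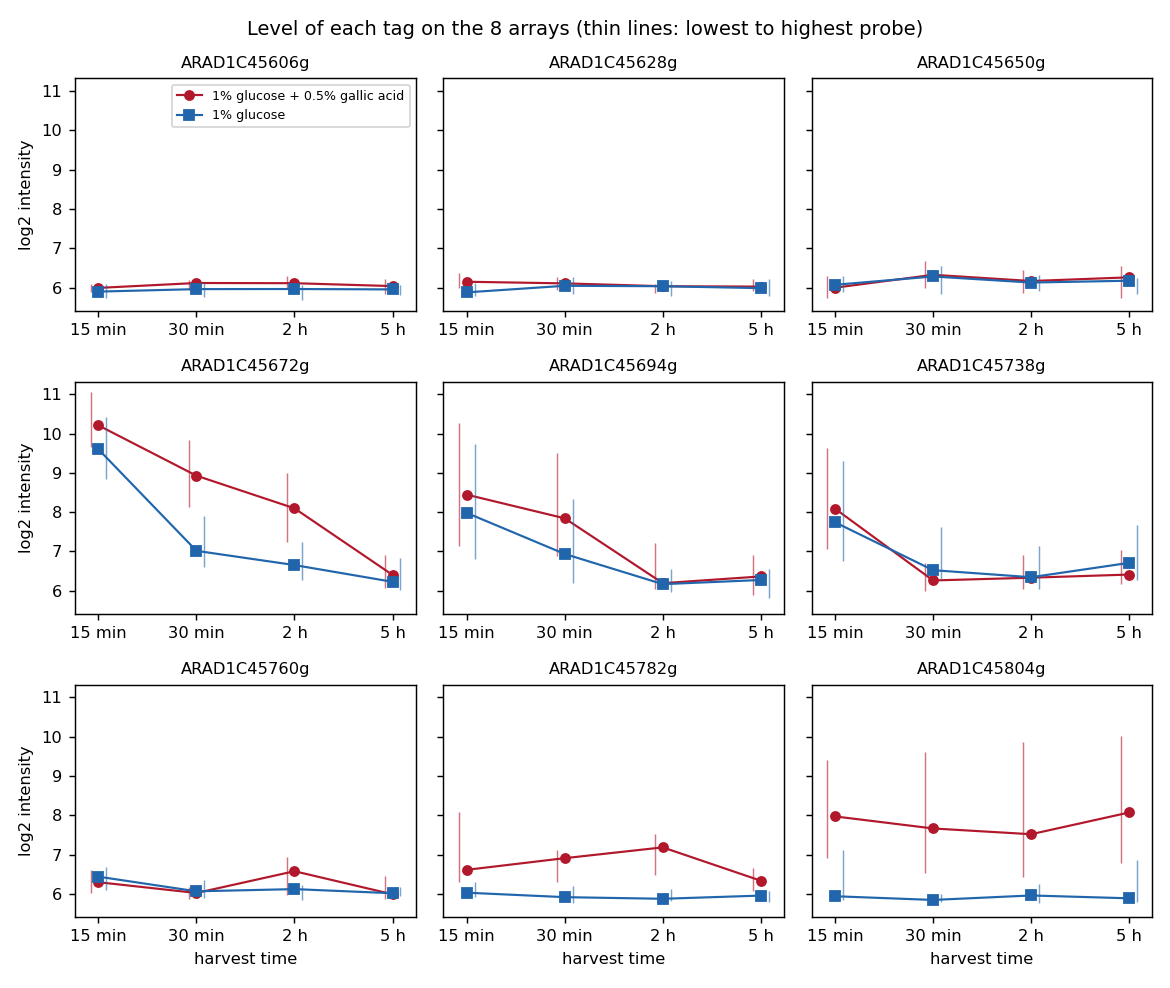
Level of each of the 9 tags on the 8 arrays, as log2 intensity (y axis) against harvest time (x axis), with the gallic acid arm as red circles and the glucose arm as blue squares. A point is the median over the probes of the tag on 1 array, and the thin lines run over its lowest to highest probe. ARAD1C45804g lay at 7.52 to 8.07 in the gallic acid arm and at 5.84 to 5.96 in the glucose arm, while ARAD1C45672g, ARAD1C45694g and ARAD1C45738g were at their highest at 15 min in both arms.

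The arms did not overlap, with every gallic acid array above every glucose array, for 3 of 9 members (ARAD1C45606g, ARAD1C45782g and ARAD1C45804g), beside 0.736% of all tested tags. The ratio was above 0 at all 4 harvest times for 5 of 9 (these 3 with ARAD1C45672g and ARAD1C45694g), beside 8.12%. The 9 members differed widely in size. Their ratios at single times ran between -0.30 for ARAD1C45738g and 2.18 for ARAD1C45804g, both at 5 h.

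ARAD1C45804g was higher by size with gallic acid at each of the 4 harvest times. In order of harvest time its level was 7.97, 7.66, 7.52 and 8.07 in the gallic acid arm, against 5.94, 5.84, 5.96 and 5.89 in the glucose arm. All 4 gallic acid arrays lay far above all 4 glucose arrays, and the glucose arrays were at the floor. The arms averaged 7.80 ± 0.26 with gallic acid and 5.91 ± 0.05 with glucose alone (SD, n = 4 each). The fit gave a log2 difference of 1.90 (SE 0.11, 95% interval 1.62 to 2.18), which is 3.73-fold, with a limma adjusted p of 0.0159, and the tag was higher at 4 of 4 harvest times. Leaving out any 1 harvest time kept the difference between 1.80 and 2.01 but ended the call (adjusted p 0.103 to 0.132).

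The response of ARAD1C45804g was in place at the first harvest, and neither its early against late ratio nor its course over time passed a test. By harvest time its log2 ratios were 2.03, 1.82, 1.56 and 2.18. The interaction of treatment with late harvest (2 h and 5 h against 15 min and 30 min) was -0.05 (SE 0.24, adjusted p 0.999). Late minus early, over both arms, was 0.00 (SE 0.11, adjusted p 0.984). All 10 probes were well above background on every gallic acid array. On the glucose arrays 1, 0, 3 and 1 probes were, from 15 min to 5 h, so the glucose level is close to a bound. At 30 min, where none was, gallic acid over glucose was at least 3.28-fold. Such bounds set the gallic acid level against the higher of the probe's own glucose level and the lowest level well above background.

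**Figure D2:**
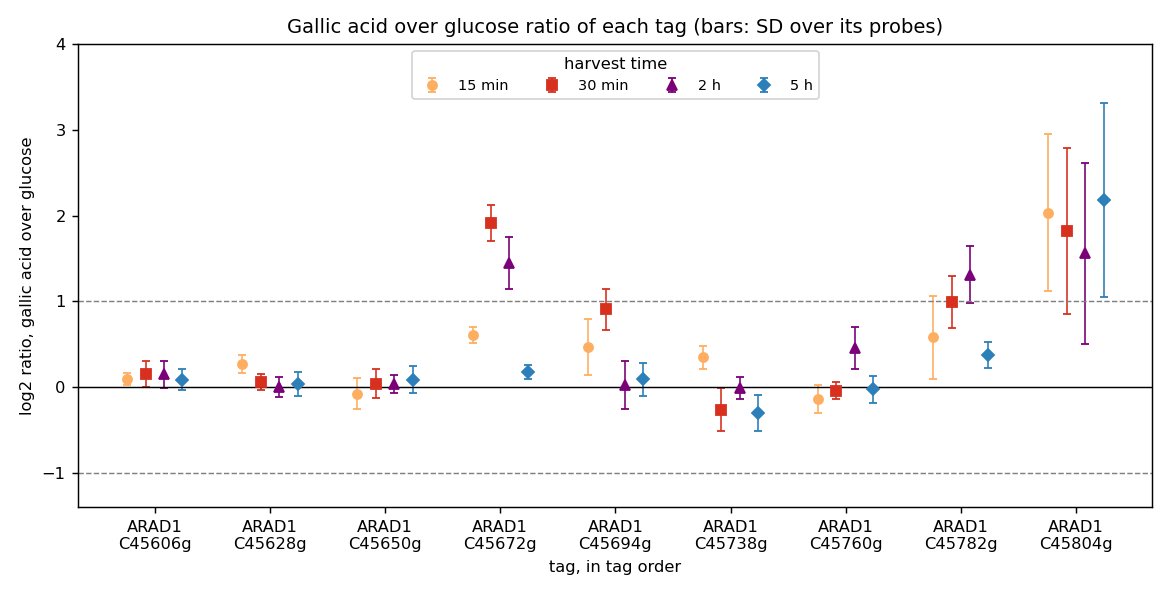
Log2 ratio of gallic acid over glucose (y axis) of each of the 9 tags in tag order (x axis), with 1 symbol per harvest time. Bars are the SD over the probes of a tag, which share 1 RNA sample and are no replicates, and the dashed lines mark log2 ratios of 1 and -1. The ratios of ARAD1C45804g lie between 1.56 and 2.18, those of ARAD1C45672g peak at 30 min with 1.91, and those of ARAD1C45782g peak at 2 h with 1.31.

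The probes of ARAD1C45804g shared the direction of the change but not its size. All 10 were higher with gallic acid at all 4 times, and the SD of the ratio over the probes was 0.91, 0.96, 1.06 and 1.13 over the course of the harvests. Probe positions, the numbers in the probe names, were read as the start of the probe in the tag and ran between 5 and 637. By harvest time the log2 ratios of the probe at 5 were 0.15, 0.59, 0.17 and 0.03, with mean levels of 6.80 in the gallic acid arm and 6.56 in the glucose arm. The probe at 637 had 3.49, 3.80, 3.98 and 4.13, with means of 9.72 in the gallic acid arm and 5.87 in the glucose arm. At the same RNA the 2 end probes of the tag thus gave the smallest and the largest mean ratio of its 10 probes. Averaged over the 5 probes of lower position the ratio was 1.42, and over the 5 of higher position it was 2.18.

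Probes were tested where they were well above background on 2 or more of the 8 arrays. Fitted probe by probe, over 47504 tested probes, 7 of the 10 probes of ARAD1C45804g rose, and 0 of the other 64 tested probes of the window passed. The 7 were well above background on all 4 gallic acid arrays and on 0 or 1 glucose arrays. They thus entered the test through the arm where they are high. Single probes were called at a rate of 0.0737% (35 probes), and 0.0695% were called as higher. The probe at 637 had the lowest adjusted p of the window (0.00106). For 7 probes of ARAD1C45804g no glucose array gave a signal well above background, and for these gallic acid over glucose was at least 1.68-fold (the probe at 65) to at least 13.9-fold (the probe at 637). The floor under the glucose values thus limited the ratio of most of its probes.

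ARAD1C45782g, its neighbour in tag order, was higher with gallic acid to a smaller extent and did not pass the fit. Its level was 6.61, 6.91, 7.18 and 6.33 in the gallic acid arm, in order of harvest time, and 6.03, 5.92, 5.87 and 5.95 in the glucose arm. The arms did not overlap, and the gallic acid arm was highest at 2 h while the glucose arm stayed at the floor. By harvest time the log2 ratios were 0.58, 0.99, 1.31 and 0.38, of which the value at 2 h passed the size rule and that at 30 min lay just under it. The mean log2 difference was 0.82 (SE 0.16, 95% interval 0.40 to 1.23), 1.76-fold, with an adjusted p of 0.402. It was higher at 4 of 4 times.

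The 10 probes of ARAD1C45782g moved together. All 10 were higher with gallic acid at all 4 times, with an SD over probes of 0.30 at 30 min and 0.33 at 2 h. At 15 min the SD was 0.49, and 1 probe, at position 859, had a log2 ratio of 2.01, past all others. Probes well above background numbered 9, 10, 10 and 5 in the gallic acid arm, and 4, 1, 1 and 0 in the glucose arm. At 5 h gallic acid over glucose was at least 1.30-fold. For 6 probes no glucose array was well above background, with bounds of 1.33-fold to 2.06-fold. The 5 probes of lower position averaged a ratio of 0.63, and the 5 of higher position 0.99.

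The treatment of the background and the scaling decided the call of ARAD1C45782g and the size of both changes. With an offset of 0 in place of 50 the log2 difference of ARAD1C45782g was 2.30 (adjusted p 0.0231), and with the scanner's processed signal scaled to the 75th percentile it was 3.35 (adjusted p 0.0225), so that 2 of 9 members passed under either setting. Those settings called 0.295% and 0.213% of all tags. The log2 ratios of ARAD1C45804g ran between 3.45 and 4.59 with offset 0 and between 4.10 and 5.72 with the processed signal. The size rule took in 6 members with offset 0 (all higher, beside 6.38% of all tags in either direction and 3.62% higher) and all 9 with the processed signal (7 higher, beside 6%, and 2 lower, beside 12.4%, with 17.8% of all tags in either direction). With the deposited log2 table it took in 4 (beside 3.66%), with the single brightest probe 4 (beside 4.24%) and with the mean of the probes 3 (beside 1.8%). Called probes of the window numbered 16 with offset 0 (beside 0.229%), 10 with the processed signal (beside 0.158%) and 13 with the deposited table (beside 0.257%). The processed signal also moved the median log2 ratio of all tags, which was -0.20, -0.10, -0.13 and 0.04 by harvest time.

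**Figure D3:**
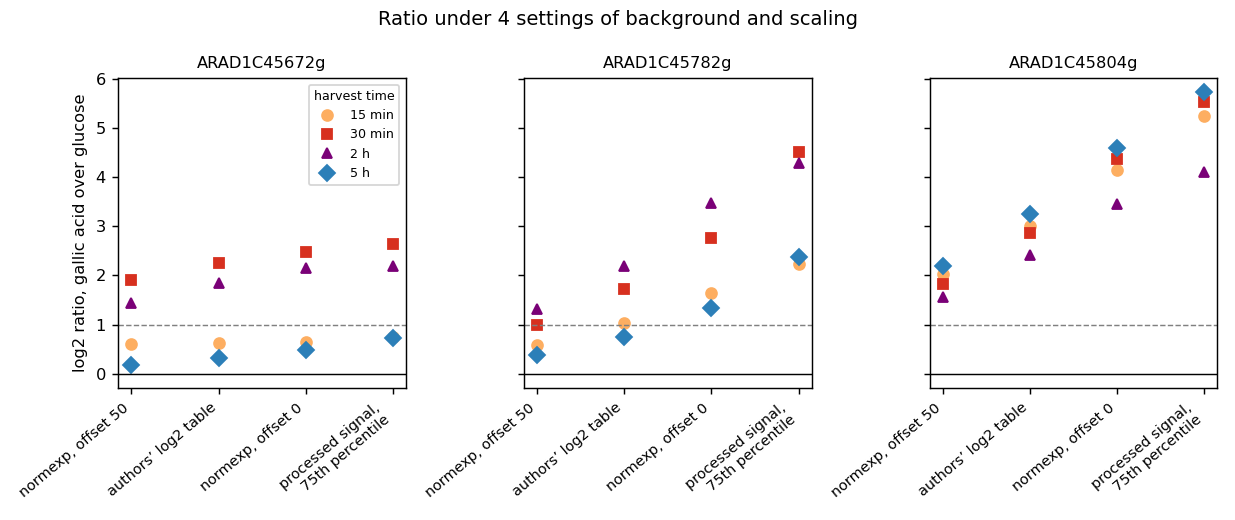
Log2 ratio of gallic acid over glucose (y axis) of 3 tags under 4 settings (x axis), with 1 symbol per harvest time. The settings differ in the treatment of the background, the processed signal also in its scaling between arrays, and the offset of the authors' table is not stated. The dashed line marks a log2 ratio of 1. Every ratio shown is above 0 under each setting, and the 30 min ratio of ARAD1C45804g is 1.82 with offset 50, 2.86 in the authors' table, 4.37 with offset 0 and 5.52 with the processed signal.

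On the other side of AGDC1 by tag number, ARAD1C45672g fell over time in both arms and was higher with gallic acid by size at 30 min and 2 h. By harvest time its levels were 10.21, 8.93, 8.10 and 6.40 in the gallic acid arm, against 9.60, 7.01, 6.65 and 6.23 in the glucose arm. Both arms were highest at 15 min and lowest at 5 h, and the gallic acid arm was the higher one at each time, although the 2 ranges overlapped. The log2 ratio started at 0.61, was 1.91 at 30 min and 1.44 at 2 h, and was 0.18 at 5 h, where 8 probes in the gallic acid arm and 5 in the glucose arm were well above background. The low value at 5 h depended on the treatment of the background and the scaling. It was 0.48 with offset 0, beside 0.64 at 15 min, and 0.73 with the processed signal, beside 0.75 at 15 min. In the deposited log2 table it was 0.31, beside 0.63 at 15 min.

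Over all times the log2 difference of ARAD1C45672g was 1.03 (SE 0.30, 95% interval 0.26 to 1.81), 2.05-fold, and did not pass (adjusted p 0.512). Its early and late mean ratios were not shown to differ (interaction -0.45, SE 0.63, adjusted p 0.990), the peak lying astride the 2 classes. The fall over time passed: late minus early was -2.09 (SE 0.30, adjusted p 0.00985), with -2.32 in the gallic acid arm and -1.87 in the glucose arm. Without 15 min it was -1.13 (adjusted p 0.128) and without 2 h -2.62 (adjusted p 0.0507), so either omission ended the call. Its probes agreed closely. All 10 were higher with gallic acid at all 4 times, 10 of 10 had a ratio past 1 at 30 min and 9 of 10 at 2 h, and the SD over probes was 0.08 to 0.30. At 30 min and 2 h all 10 were well above background in both arms.

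**Figure D4:**
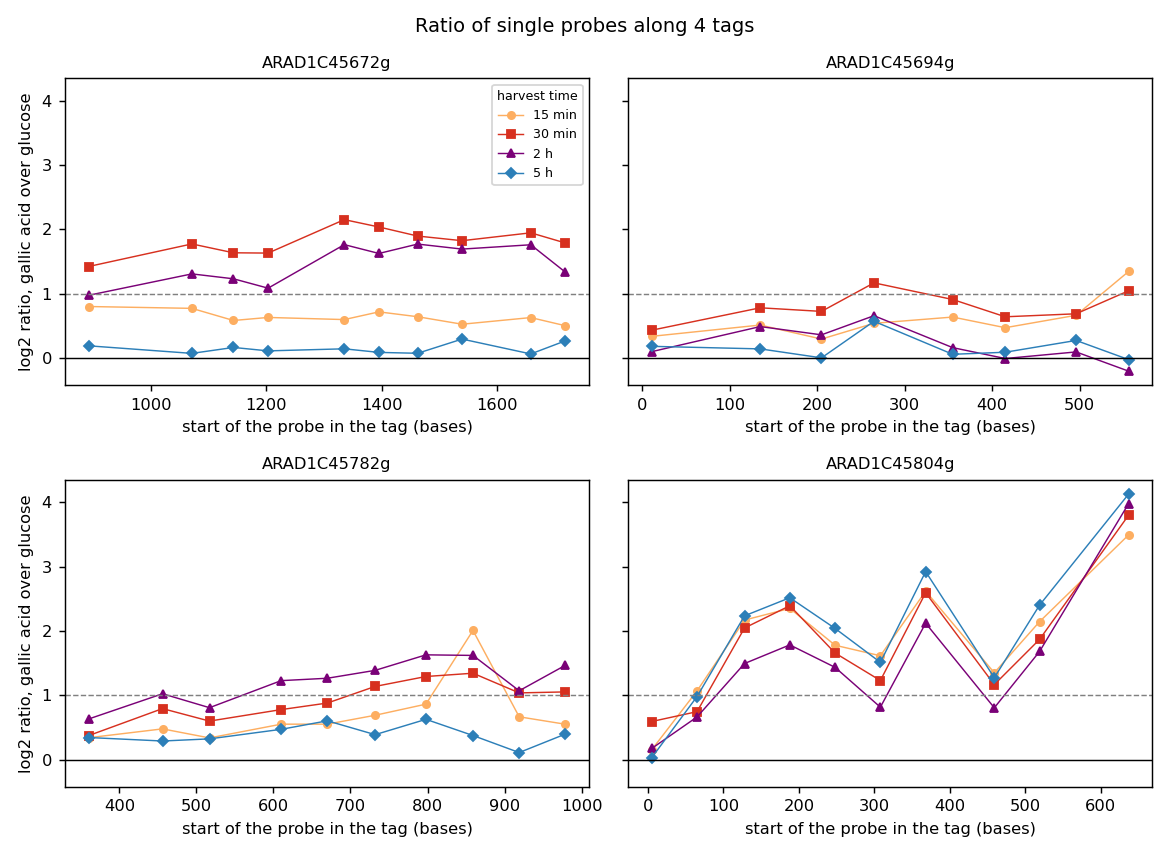
Log2 ratio of gallic acid over glucose (y axis) of each probe against its start in the tag in bases (x axis), for ARAD1C45672g, ARAD1C45694g, ARAD1C45782g and ARAD1C45804g, with 1 symbol and line per harvest time and a dashed line at a log2 ratio of 1. The lines of ARAD1C45672g are nearly flat along the tag, whereas those of ARAD1C45804g run between 0.03 at the first probe and 4.13 at the last, both at 5 h.

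Over both arms, 3 of 9 members fell between the early and the late harvests and 0 rose. Of all tested tags 10.8% fell and 13.1% rose, 23.9% in all (1460 of 6112), so a fall or rise over time was common on these arrays. The 3 members were ARAD1C45672g, ARAD1C45694g and ARAD1C45738g, the last of these on the far side of ARAD1C45716g by tag number. The interaction of treatment with late harvest was called for 0 of 9 members by limma, beside 0% of all tags. At an unadjusted p below 0.05, 1 member and 329 of 6112 tags passed it.

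ARAD1C45694g, directly before AGDC1 in tag order, had levels of 8.44, 7.84, 6.19 and 6.36 in the gallic acid arm, in order of harvest time, and 7.98, 6.94, 6.17 and 6.27 in the glucose arm. Both arms were higher at the 2 early harvests than at the 2 late ones. Late minus early was -1.55 (SE 0.16, adjusted p 0.00421), and the call held without any 1 harvest time, with differences of -1.96 to -1.14. Its early ratios were 0.46 and 0.91 and its late ones 0.03 and 0.09. It was the 1 member with an unadjusted p below 0.05 for the interaction (-0.63, SE 0.17, limma adjusted p 0.797), which did not pass. The mean difference between the arms was 0.37 (SE 0.16, adjusted p 0.615), 0.19 without 30 min and 0.73 with the brightest probe, and at 15 min and 30 min all 8 probes were higher with gallic acid.

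ARAD1C45738g, directly after AGDC1 in tag order, had levels of 8.09, 6.26, 6.33 and 6.41 in the gallic acid arm and 7.74, 6.52, 6.34 and 6.71 in the glucose arm. In both arms the array at 15 min stood above the other 3. The ratio was 0.35 at the first harvest, then -0.26, -0.01 and -0.30. At 15 min 9 of 10 probes were higher with gallic acid, and at 5 h 0 of 10 were. The mean difference was -0.06 (SE 0.12, adjusted p 0.923). Late minus early was -0.70 (SE 0.12, adjusted p 0.0151), and it rested on the 15 min arrays, since without them it was 0.06 (adjusted p 0.684). Without 2 h it was -0.59 (adjusted p 0.130). The tags on either side of AGDC1 by tag number thus both had their highest level at 15 min, and neither passed the comparison of the arms. By probe serial the tag next after ARAD1C45694g was instead ARAD1C45804g, which did pass.

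ARAD1C45760g lay between ARAD1C45738g and ARAD1C45782g and was at 6.30, 6.02, 6.58 and 5.99 in the gallic acid arm, in order of harvest time, and at 6.44, 6.06, 6.12 and 6.02 in the glucose arm. It stood apart at 2 h, where the ratio was 0.46 and 9 of 10 probes were higher with gallic acid. At the other times the ratios were -0.14, -0.04 and -0.03, and the mean difference was 0.06 (SE 0.11, adjusted p 0.909). The difference at 2 h fell short of the size rule, but the log2 ratio there was 1.22 with offset 0 and 1.60 with the processed signal.

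The 3 tags with the lowest numbers stayed at 6.33 or below in both arms, near the floor, where the offset of 50 narrows a difference. ARAD1C45606g lay at 5.99 to 6.12 in the gallic acid arm and at 5.90 to 5.96 in the glucose arm. Its arms did not overlap, but its mean log2 difference was 0.12 (SE 0.03, adjusted p 0.490), and no array had more than 6 of its 10 probes well above background. ARAD1C45628g averaged 6.08 ± 0.06 with gallic acid and 5.99 ± 0.08 with glucose alone (SD, n = 4 each), a difference of 0.09 (SE 0.06, adjusted p 0.718). ARAD1C45650g averaged 6.19 ± 0.14 with gallic acid and 6.17 ± 0.09 with glucose alone (SD, n = 4 each), a difference of 0.02 (SE 0.04, adjusted p 0.909). In these last 2 the arms overlapped. ARAD1C45650g had 9 of 10 probes well above background at 30 min with gallic acid and at 2 h with glucose alone. At 15 min with gallic acid it had 0. The differences of the first 2 depended on the offset: ARAD1C45606g had 0.57 with offset 0 and 0.61 with the processed signal, and ARAD1C45628g had 0.42 and 0.47 under these settings. At 15 min the log2 ratio of ARAD1C45628g was 0.27 with offset 50, 1.25 with offset 0 and 1.83 with the processed signal. For ARAD1C45650g the 15 min ratio was -0.07, -0.32 and -1.25 under the same settings.

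The 10 tags just before the window served as its nearest comparison. None of the 10 was called in the fit over all harvest times, and their log2 differences ran between -0.51 and 0.18 with a median of -0.03. By size 0 were higher and 1 was lower at any time (0 and 1 also with offset 0), and over time 2 of the 10 fell. A list of tags with a role or a candidate role in the breakdown of aromatic acids in this yeast held 10, of which 8 were tested. It was taken from the study and drawn up with findings on these arrays known. The study picked most of the candidates on arrays with another inducer, protocatechuic acid. For the listed catechol-1,2-dioxygenase gene ACDO1 (ARAD1D18458g) it reports induction by gallic acid in quantitative PCR and on arrays. In the fit 0 of the 8 tested tags were called, 1 was higher and 0 were lower by size, and their highest log2 ratio at any time was 1.13. The ratios of ARAD1C45804g at all 4 times, of ARAD1C45672g at 30 min and 2 h and of ARAD1C45782g at 2 h were above that value.

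For the 3 members that were higher by size, the most similar other tag over the 8 arrays was found by the root mean square distance between profiles centred on their means. For ARAD1C45804g this was ARAD1D01672g, at 0.25 log2 units beside the member's own spread of 0.96, and the next tag was at 0.42. Its nearest tag, ARAD1D01672g, had log2 ratios of 1.79, 1.29, 1.45 and 1.49 by harvest time. For ARAD1C45782g it was ARAD1D00044g, at 0.20 beside a spread of 0.47, with ratios of 0.35, 0.67, 0.81 and 0.09. For ARAD1C45672g it was ARAD1A06820g, at 0.52 beside a spread of 1.44, with ratios of 0.54, 1.48, -0.11 and -0.40. The last of these was near in its course but had no higher level with gallic acid at 2 h.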

How the data were processed

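Total RNA of 8 samples, 1 per arm and harvest time, was labelled with Cy3 and hybridised to 1 array each. Spot intensity values were deposited by the authors as scanner files made with Agilent Feature Extraction 11.5.1.1, with median signal, local background, a processed signal and flags of 0 or 1 (other values, deposited without a unit). A second file deposited by the authors holds log2 values, normexp-corrected and quantile-normalised in limma per the labels. The sources used here state neither its offset nor its signal column. It is not centred per tag, its column medians were 5.63 to 5.65 and it was used as an alternative.

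Here the median signals were corrected by normexp (offset 50), quantile-normalised and set on the log2 scale in limma 3.58.1 under R 4.3.3. Spots of a probe were averaged and a tag took the median of its probes. Of 62976 features 1439 control spots were left out. Tags entered the tests with any probe well above background on 2 or more of the 8 arrays, and the stricter filter asked for at least 50% of the probes on at least 4. lmFit and eBayes were fitted across all tested tags with harvest time as a block plus treatment (3 residual degrees of freedom) and with treatment times late harvest (2). P-values were adjusted by the Benjamini-Hochberg method. Harvest times pair the arrays by the labels, and same-time arrays deviated together (r = 0.75 to 0.91). The scripts were tested on simulated data. The text names every tag of the interval, and for those changed by size the nearest tags by profile, of which the nearest 1 is named. The members, lists and alternatives were chosen with earlier results of these data known. Alternatives were other background treatments, scalings, probe summaries and filters, Bonferroni adjustment (named by the study), no block, and leaving out each harvest time. No sequences came with the files, so none are shown.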

Additional observations from a re-analysis of the deposited data

Results flagged for a closer look

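Within each arm the 4 levels of each tag were examined for 1 array far from the other 3, by Dixon's criterion at 95%. Of 18 sets of 4 arrays 2 stood out, where chance gives about 1 in 20. The arrays of an arm are different harvest times, so a course over time also meets this criterion. ARAD1C45738g had a log2 level of 8.09 at 15 min in the gallic acid arm, where its next highest array was at 6.41 and 100% of its probes were well above background. ARAD1C45606g had a log2 level of 5.90 at 15 min in the glucose arm, where its next lowest array was at 5.95 and 10% of its probes were well above background.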

How the results depend on the processing

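With harvest time as the replicate block, 1 member was called for gallic acid over glucose, and without the replicate block 1 was called too. The count was 2 with the processed signal and 2 with offset 0, 0 with Bonferroni adjustment (adjusted p of ARAD1C45804g 0.0635) and 0 to 0 on leaving out a harvest time. It was 1 with the authors' table, the mean of the probes, the brightest probe, no filter and the stricter filter. Over all tags the calls were 5, against 13 with the processed signal, 18 with offset 0, 10 with the authors' table, 1 with Bonferroni adjustment, 3 without the block, and 0 to 4 without a harvest time. The interaction was called for 0 members throughout. The fall over time was called for 3 members, for 0 with Bonferroni adjustment and for 1 to 3 without a harvest time (1 without 15 min and 1 without 2 h). The size rule took in 3 members, but 9 with the processed signal and 6 with offset 0. Called single probes numbered 7, but 16 with offset 0 and 13 with the authors' table. Some directions turned, among them that of a called result, late minus early of ARAD1C45738g. For ARAD1C45650g the difference was -0.24 with the processed signal and -5.0e-05 with the brightest probe. On leaving out a harvest time it was -0.19 to 0.024 for ARAD1C45738g and -0.070 to 0.13 for ARAD1C45760g, the interaction of ARAD1C45672g was -1.10 to 0.20, and late minus early of ARAD1C45738g was -1.47 to 0.057. Of 180 ratios at single times under other settings, 90 moved by more than the SD over probes. Signal over background limits the ratios, since most glucose values of ARAD1C45782g and ARAD1C45804g lie near the floor.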

Other observations

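In the serial numbers of the probe names, the window ran in another order than in its tag numbers. Tag numbers step by 22, and by 44 across the place of ARAD1C45716g. The probe serials rose with the tag number up to ARAD1C45694g (first serial 35717), then went on with ARAD1C45804g (35725), ARAD1C45782g (35735), ARAD1C45760g (35745) and ARAD1C45738g (35755). Over chromosome C 4 of 1990 neighbouring tags had such a fall in serial number, against 0 of 870 on A, 1 of 1048 on B and 0 of 2180 on D, and 3 of the 4 lay in this window. Which of the 2 orders follows the chromosome was not tested, so neighbourhood is meant here by tag number alone. Nor was it tested whether ARAD1C45804g, the next by serial after ARAD1C45694g, stands for a gene apart from AGDC1.

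Of the probes of the 9 tags 7 had 2 spots, and over 56 pairs of spots the median difference was 0.08 on the log2 scale (0.10 over all 41796 such pairs). At 30 min in the glucose arm, the 2 spots of the probe at 1486 of ARAD1C45738g differed by 1.69 (5.66 and 7.36). Neither spot was marked as an outlier by the scanner software.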
